A study of Mus musculus with 12 samples.

Results

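The nuclear genes of the mitochondrial respiratory chain were examined in mouse keratinocytes, the epithelial cells of the epidermis, in culture. Members were taken by symbol: genes whose names begin with Nduf, Uqcr, Cox4 to Cox8 or Atp5, and the 4 succinate dehydrogenase genes, without pseudogenes, each read by its brightest probe set with a single gene symbol. These were 87 of the 22180 genes measured. By complex, 32 genes encode subunits of complex I (6 core and 26 accessory) and 8 encode complex I assembly factors (Ndufaf genes). Complex II has 4 members, complex III has 7, complex IV has 11 general subunits and 8 tissue-restricted or condition-restricted isoforms, and complex V has 17. Ndufa4 is counted with complex IV, where its protein resides, in spite of its name. Membership and complex were set by name and known role, though with earlier results of these data known. Which members are named with values depended in part on their p.

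The series holds 12 Affymetrix arrays in 4 groups of 3, each array from a culture of keratinocytes with Atg7 f/f alleles grown in KGM-2 medium. The wt groups (autophagy competent) were K14::Cre negative and the KO groups (autophagy deficient) were K14::Cre positive, Cre being driven by the promoter of keratin 14, which is active in basal keratinocytes. Cultures received 20 µM paraquat or a sham treatment, and RNA was taken 48 h later, which gives the groups wt sham, KO sham, wt paraquat and KO paraquat. All 4 groups carry the floxed Atg7 alleles, and the labels separate the genotypes by the presence of Cre. The labels call the replicates biological triplicates and do not tie an array to an animal, so the p-values measure the spread between these arrays.

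The respiratory chain sits in the inner mitochondrial membrane. Complex I takes electrons from NADH and complex II takes them from succinate, ubiquinone carries them to complex III, and cytochrome c carries them on to complex IV, which reduces oxygen to water. Complexes I, III and IV pump protons, and complex V, the ATP synthase, lets them flow back to make ATP. Paraquat is a herbicide that takes single electrons from flavin enzymes, complex I among them, and passes them to oxygen as superoxide. Atg7 is an enzyme needed to form autophagosomes, which among other cargo degrade damaged mitochondria.

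Values are RMA signals on a linear scale, and differences are given as log2 ratios with the standard error (SE) of a limma fit to all 12 arrays. A gene is said to rise or fall where its adjusted p (Benjamini-Hochberg over 22180 genes) was under 0.05. A signal compares a gene with itself across arrays and not one gene with another. Of the 87 members, 8 had a mean signal at or under the highest array median of 45 (Cox4i2, Cox7a1, Cox7b2, Cox8b, Cox8c, Ndufaf5, Ndufb11 and Ndufs5). Since the RNA is from whole cultures, fewer cells of a type and less RNA per cell cannot be told apart.

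Some arrays stood apart. Atg7 itself was at 286 to 457 in the 6 wt arrays and 96 to 148 in the 6 KO arrays, lower in every array labelled KO. The arrays KO sham 3 and KO paraquat 3 had Xist at 2104 and 1553, against 13 to 73 in the other 10 arrays. Their Y-linked Eif2s3y was at 27 and 23, against 504 to 740 elsewhere, so these cultures differed from the other 10 in sex-linked RNA. Over all genes, wt sham 2 and KO paraquat 3 lay away from their groups on the first and later principal components. On the first, which parted sham from paraquat arrays, wt sham 2 was at -25.8 against -36 and -35.3 in its group. KO paraquat 3 was at 23.5 against 32.4 and 29.6, so both arrays lay nearer the other treatment. Keratinocyte markers were present (9 of 9 measured, all above 45), with 1 rise and 4 falls in wt and 1 rise and 3 falls in KO, and Ivl went from a mean of 276 to 1823 in wt and from 264 to 1325 in KO. The summed signal of 7 melanocyte markers was 382 to 497 in sham and 885 to 965 in paraquat arrays, largely through Mlana and Mitf. Of these 7 markers, 4 rose in each genotype and none fell. Dct, Pmel and Tyrp1 had higher means under paraquat in both genotypes (Tyrp1 60 to 78.7 in wt and 55.7 to 109.7 in KO). Tyr and Sox10 were at or under 42.7 in every group mean. The 6 leukocyte markers summed to 732 to 839 in sham and 1388 to 2065 in paraquat arrays, largely through Cd68. Among them 3 rose in wt and 2 in KO, while Ptprc was at or under 18 in the group means. The 6 endothelial markers summed to 200 to 238 and 330 to 476, largely through Kdr, and 3 rose in wt and 2 in KO. Tek went from a mean of 30 to 50.7 in wt and 46.3 to 70.3 in KO, while Cdh5 was at or under 33. The 4 brown adipocyte markers summed to 103 to 241 and 340 to 655, largely through Cidea, and 3 rose in wt and 2 in KO. Ucp1 went from a mean of 29.7 to 66 in wt and 30 to 40 in KO. Fabp4 went from 9.33 to 39.3 in wt and 12 to 23 in KO, and Adipoq was at or under 13.3 in the group means. The part of these cells or arrays in the results was not tested, and calls of members lost without the KO arrays with Xist signal are given.

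In wt keratinocytes paraquat moved the chain in both directions and mostly by small amounts. Of 87 members, 23 rose and 9 fell (36.8%), against 29.2% of all genes (14.9% higher and 14.3% lower). The median log2 difference was 0.07 over the members and 0.01 over all genes, and 78 of 87 members stayed within 1.5-fold. The widest changes were a 2.17-fold rise of Uqcrh, a 1.96-fold rise of Ndufa4 and a 2.61-fold fall of Ndufa4l2. In 40 members (46.0%) the 3 paraquat arrays lay wholly above or below the 3 sham arrays, against 37.6% of all genes.

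In KO keratinocytes 16 members rose and 5 fell (24.1%), against 27.1% of all genes (14.5% higher and 12.6% lower). The median was 0.04, and 83 members stayed within 1.5-fold. The widest were a 3.03-fold fall of Ndufa4l2, a 1.97-fold rise of Atp5d and a 1.68-fold rise of Ndufa4. Arrays of sham and paraquat did not overlap in 32 members (36.8%), against 37.2% of all genes. The share of members called was near the background. Without KO sham 3 and KO paraquat 3, rises numbered 6 (Atp5d, Ndufa4, Ndufaf8, Ndufc2, Sdhc and Uqcrfs1) and falls 7, Atp5g3 no longer among them (adjusted p = 0.0578). The 10 rises no longer called had adjusted p from 0.0532 to 0.271 in that fit, and all 10 kept their sign.

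The wt and KO responses share no array. Both passed the threshold in 18 members, all in the same direction, 15 higher and 3 lower. That is 56.2% of the members called in wt, 85.7% of those called in KO and 20.7% of all members, against 19.3% of all genes called in both in the same direction. Over all genes the shared calls were 66% of those called in wt and 71.1% of those called in KO. Across the 87 members the log2 responses correlated with r = 0.82, and across all genes with r = 0.83. These correlations run over genes, which are not independent replicates. The shared rises were Atp5d, Atp5md, Atp5pb, Cox7a2, Cox8a, Ndufa4, Ndufa11, Ndufa12, Ndufaf1, Ndufaf8, Ndufb6, Ndufc2, Sdhc, Uqcrfs1 and Uqcrh, and the shared falls were Ndufa4l2, Ndufv3 and Sdha.

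**Figure D1:**
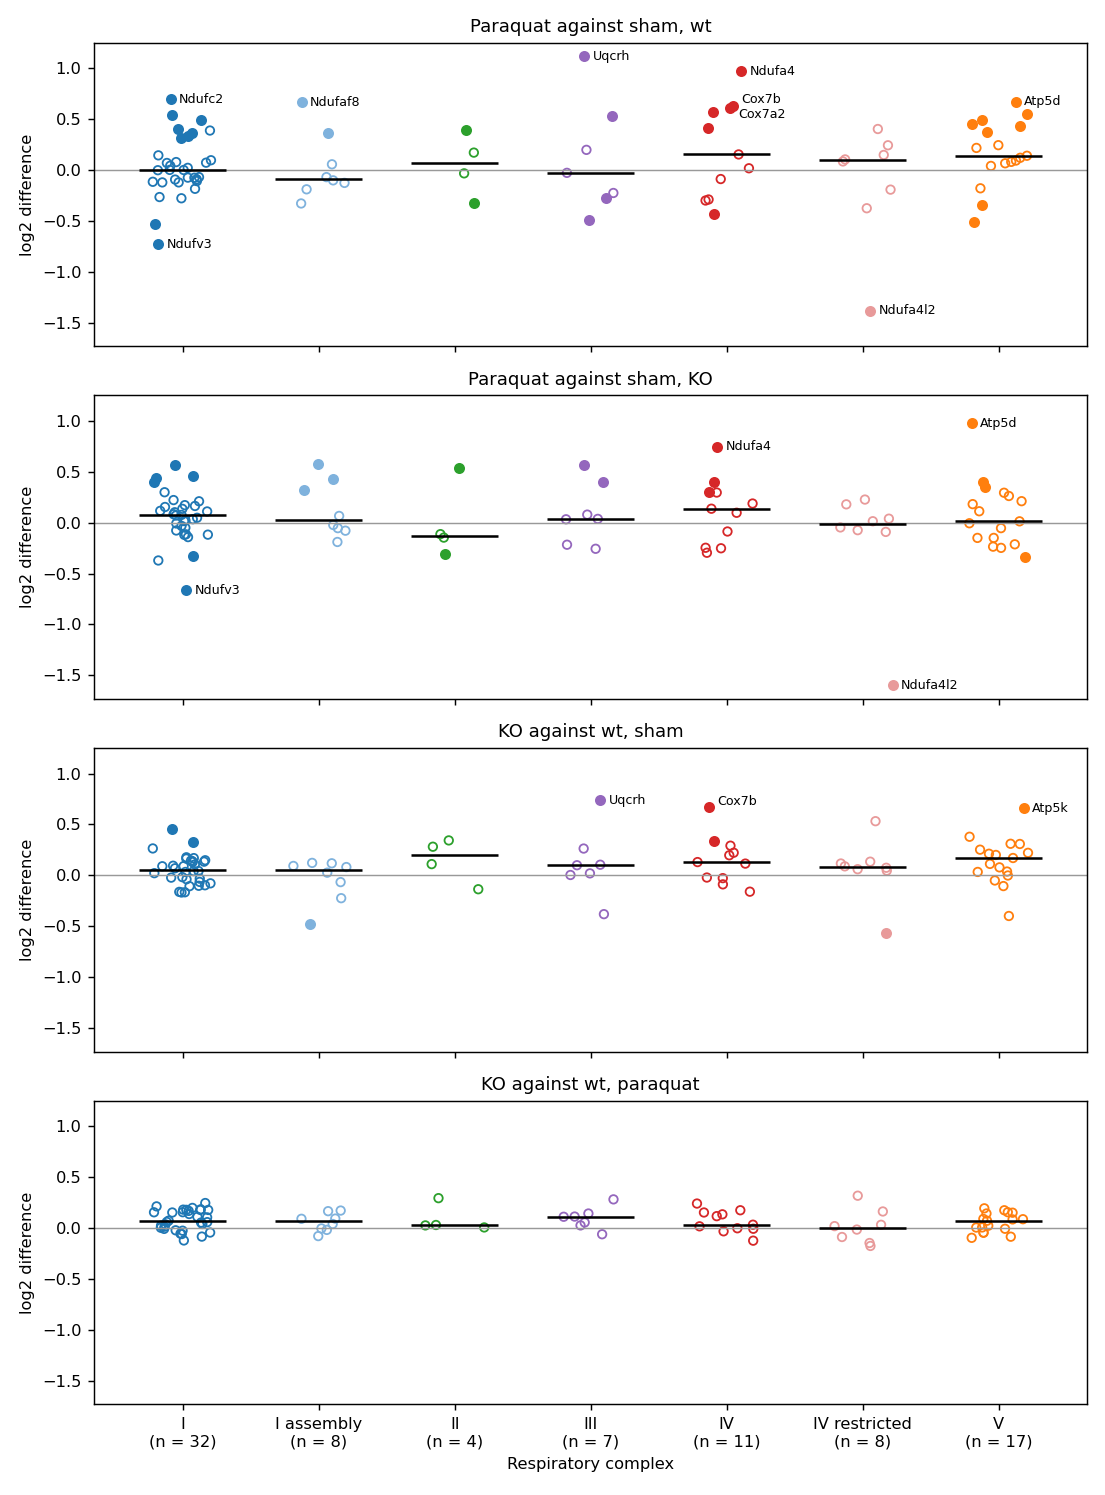
The log2 difference of each of the 87 members is plotted by complex for 4 comparisons, with filled points for members past the adjusted p threshold, open points for the others and a bar at the median of each complex. Filled points lie on both sides of 0 in the upper 2 panels, number 8 in the sham comparison of genotypes and are absent under paraquat.

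The promoters of the members that moved most surely in both genotypes are shown because they are the regulatory sequence next to those genes. The 4 members with the smallest larger p of both responses were Ndufa4l2, Ndufa4, Ndufc2 and Uqcrfs1, and RefSeq windows (assembly GRCm38.p6) were at hand for the last 3. Each line gives the 250 bases before the annotated start, 5′ to 3′ on the strand of the gene. The Ndufa4 window is chr6:11907451-11907700 (minus strand), that of Ndufc2 is chr7:97399753-97400002 (plus strand) and that of Uqcrfs1 is chr13:30545317-30545566 (minus strand). Capitals mark a match to one of 7 motifs searched on both strands.
Ndufa4: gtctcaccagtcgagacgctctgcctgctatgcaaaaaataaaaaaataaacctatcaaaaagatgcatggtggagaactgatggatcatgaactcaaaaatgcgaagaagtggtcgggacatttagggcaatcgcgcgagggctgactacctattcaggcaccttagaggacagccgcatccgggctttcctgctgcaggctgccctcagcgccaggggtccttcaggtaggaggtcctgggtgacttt
Ndufc2: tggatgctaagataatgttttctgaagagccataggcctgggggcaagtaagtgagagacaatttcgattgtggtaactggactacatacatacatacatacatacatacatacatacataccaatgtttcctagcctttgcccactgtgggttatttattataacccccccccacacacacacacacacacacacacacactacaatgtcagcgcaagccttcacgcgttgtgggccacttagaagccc
Uqcrfs1: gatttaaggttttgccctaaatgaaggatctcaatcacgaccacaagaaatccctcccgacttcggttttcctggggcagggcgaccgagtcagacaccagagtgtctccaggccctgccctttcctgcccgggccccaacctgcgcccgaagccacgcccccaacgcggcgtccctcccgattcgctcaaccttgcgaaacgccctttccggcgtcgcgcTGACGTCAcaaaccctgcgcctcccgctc
The Uqcrfs1 window held 1 match, the cyclic AMP response element TGACGTCA at bases -29 to -22 from the start. In the Ndufa4 and Ndufc2 windows none of the 7 motifs was found, which says only that these letters are not in those bases. GC content was 51.6% for Ndufa4, 45.2% for Ndufc2 and 62.4% for Uqcrfs1.

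Across the members, 72 of 87 had a RefSeq window, 77 windows in all. The palindromic motif of NRF1, a transcription factor known for nuclear genes of the chain and given in capitals in the lines that follow, was in 6.49% of the member windows and 1.07% of 21262 windows of protein-coding genes. The ETS motif CCGGAAG, bound by the factor GABP among others, was in 18.2% against 8.98%. The hypoxia core ACGTG was in 20.8% against 17.8%, the antioxidant element TGACNNNGC in 11.7% against 10.4%, the cyclic AMP response element TGACGTCA in 3.90% against 1.92% and the YY1 motif AAGATGGC in 1.3% against 1.5%. The ATF4 element TGATGNAA was in 0 of 77 member windows against 3.18%. A window could hold more than 1 of them, and a match is a string of letters and not a measured site. The 5 members with the NRF1 motif are printed with it in capitals, since NRF1 is known as a regulator of such genes.
Atp5g2: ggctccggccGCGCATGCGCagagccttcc
Atp5k: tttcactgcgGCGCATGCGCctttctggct
Cox6a1: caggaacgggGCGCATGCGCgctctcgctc
Ndufa11: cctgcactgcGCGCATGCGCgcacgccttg
Ndufaf4: ccagatgtctGCGCATGCGCctgtgcggaa
These stretches lie at chr15:102671070-102671099 (minus), chr5:108434430-108434459 (minus), chr5:115349101-115349130 (minus), chr17:56717692-56717721 (plus) and chr4:24897960-24897989 (plus) in the order printed. The matches end between 153 and 33 bases before the start. The 5 genes did not move alike under paraquat in wt cells: Ndufa11 and Atp5k rose (log2 0.50 and 0.37), Atp5g2 fell by 0.51, and Cox6a1 and Ndufaf4 differed by 0.02 and -0.07, which did not pass.

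Complex I, the entry point for electrons from NADH, had 7 rises and 2 falls among 32 subunits in wt and 4 rises and 2 falls in KO. The shares called were 28.1% and 18.8%, against 29.2% and 27.1% of all genes, with medians of 0.00 and 0.07. Among the 6 core subunits, which carry the flavin, the iron-sulphur clusters or the ubiquinone site, 1 rose and 1 fell in wt and none passed in KO (1 at an unadjusted p under 0.05). Ndufs1 carries iron-sulphur clusters of the electron input arm. Its signal was 382, 374 and 371 in wt sham against 542, 537 and 561 in wt paraquat, and 540, 527 and 478 in KO sham against 596, 524 and 548 in KO paraquat. The wt sham arrays were the low group, and the other 3 groups overlapped one another. Ndufs1 rose 1.46-fold in wt (log2 0.54 ± 0.08 SE, n = 3 per group, limma adjusted p = 0.000131), and differed by 0.11 ± 0.08 in KO (adjusted p = 0.359).

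Ndufs8, a core iron-sulphur subunit near the ubiquinone site, was at 673, 917 and 692 in wt sham and 587, 481 and 502 in wt paraquat. In KO it was at 914, 684 and 714 in sham and 547, 569 and 662 in paraquat. Paraquat arrays were lower in both genotypes without overlap, by log2 -0.53 ± 0.14 in wt (adjusted p = 0.0116) and -0.37 ± 0.14 in KO (adjusted p = 0.0718). Without wt sham 2, the high array, or without wt paraquat 2, the wt fall was no longer called. The other core subunits were the flavin-binding Ndufv1, its partner Ndufv2, Ndufs3 and Ndufs7. They differed by -0.18 to 0.07 in wt and -0.12 to 0.08 in KO, none past the threshold. The 95% intervals of the Ndufv1 difference were -0.41 to 0.04 in wt and -0.21 to 0.25 in KO.

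The accessory subunits surround the core and are needed for assembly and stability. Of 26, 6 rose and 1 fell in wt, and 4 rose and 2 fell in KO (26.9% and 23.1%, against 29.2% and 27.1% of all genes). Ndufc2, a membrane arm subunit, was at 857, 911 and 800 in wt sham and 1289, 1368 and 1499 in wt paraquat. In KO its signal was 950, 942 and 914 in sham and 1316, 1295 and 1556 in paraquat. All 6 paraquat arrays lay above all 6 sham arrays, and the differences were 0.69 ± 0.09 in wt (1.62-fold, adjusted p = 6.48e-05) and 0.57 ± 0.09 in KO (1.48-fold, adjusted p = 0.00044). Ndufv3, a small subunit of the electron input arm, went the other way.

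Ndufv3 was at 218, 226 and 190 in wt sham and 121, 111 and 152 in wt paraquat, and at 235, 229 and 235 in KO sham and 129, 136 and 181 in KO paraquat. Every paraquat array lay under every sham array. Its falls were 1.66-fold in wt (log2 -0.73 ± 0.14, adjusted p = 0.000995) and 1.58-fold in KO (log2 -0.67 ± 0.14, adjusted p = 0.00237). Of the other accessory subunits, Ndufa11 (0.50 in wt and 0.44 in KO), Ndufb6 (0.36 and 0.40) and Ndufa12 (0.33 and 0.46) rose in both genotypes, and their KO calls were lost without KO sham 3 and KO paraquat 3. The wt rise of Ndufa12 was lost in the same fit (adjusted p = 0.0718) and in 12 of 24 alternatives in all. Ndufa11 has a second, dimmer probe set that differed by 0.13 and 0.12 and did not pass, while both probe sets of Ndufa12 differed upwards. Ndufab1, the mitochondrial acyl carrier protein, rose by 0.41 in wt and differed by 0.12 in KO. Ndufa3 fell by 0.33 in KO and differed by -0.28 in wt.

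Of the 8 Ndufaf assembly factors, which build complex I and leave the finished enzyme, 2 rose in wt and 3 in KO and none fell in either (3 at an unadjusted p under 0.05 in each genotype, in either direction). The shares called were 25% and 37.5%, against 29.2% and 27.1% of all genes. Ndufaf8, a partner of the assembly factor Ndufaf5, had the widest change. It was at 113, 140 and 120 in wt sham against 209, 200 and 181 in wt paraquat, and 140, 136 and 118 in KO sham against 201, 174 and 214 in KO paraquat, so paraquat and sham arrays did not overlap. The differences were 0.67 ± 0.11 in wt (1.58-fold, adjusted p = 0.000388) and 0.58 ± 0.11 in KO (1.49-fold, adjusted p = 0.00136). Ndufaf1, a factor of the membrane arm, rose by 0.36 and 0.43, and Ndufaf7, a methyltransferase that modifies a core subunit, rose by 0.32 in KO and differed by 0.06 in wt. The difference between its responses did not pass (0.26, adjusted p = 0.41). Neither KO rise was called without KO paraquat 3.

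Complex II, succinate dehydrogenase, joins the citric acid cycle to the chain, and its 4 subunits did not move together. Sdha, the flavoprotein that oxidises succinate, was at 817, 800 and 803 in wt sham and 646, 666 and 620 in wt paraquat. In KO it was at 1078, 1002 and 871 in sham and 784, 838 and 747 in paraquat. It fell 1.25-fold in wt (log2 -0.33 ± 0.09, adjusted p = 0.0123) and 1.24-fold in KO (log2 -0.31 ± 0.09, adjusted p = 0.0168), and KO lay above wt under both treatments without overlap, which did not pass (0.28 in sham, adjusted p = 0.0629). The KO fall was not called without KO paraquat 3, nor without KO sham 1 or KO sham 2.

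Sdhc, which anchors the enzyme in the membrane, moved in the opposite direction to Sdha in both genotypes. Its signal was 307, 367 and 268 in wt sham against 401, 416 and 411 in wt paraquat, and 309, 272 and 270 in KO sham against 402, 396 and 435 in KO paraquat. It rose 1.31-fold in wt (log2 0.39 ± 0.11, adjusted p = 0.0123) and 1.45-fold in KO (log2 0.54 ± 0.11, adjusted p = 0.00184). Without wt sham 2 both the rise of Sdhc and the fall of Sdha in wt were called, and without wt sham 3 the rise was not. The iron-sulphur subunit Sdhb differed by -0.03 and -0.11, and the second anchor Sdhd by 0.17 and -0.15, none past the threshold.

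Complex III passes electrons from ubiquinol to cytochrome c. Of its 7 members 2 rose and 2 fell in wt, and 2 rose and none fell in KO (4 at an unadjusted p under 0.05, in either direction). The shares called were 57.1% and 28.6%, against 29.2% and 27.1% of all genes. Uqcrh, the hinge subunit at the contact with cytochrome c, had the widest rise of any member in wt. It was at 186, 152 and 137 in wt sham against 344, 314 and 365 in wt paraquat, and 279, 250 and 257 in KO sham against 320, 330 and 393 in KO paraquat. The wt sham arrays were below all 9 others, and KO sham lay between them and the paraquat arrays. Uqcrh rose 2.17-fold in wt (log2 1.12 ± 0.12, adjusted p = 7.99e-06) and 1.32-fold in KO (log2 0.40 ± 0.12, adjusted p = 0.0208). The KO rise was not called without KO sham 3 and KO paraquat 3 (0.30, adjusted p = 0.179).

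Uqcrfs1, the Rieske iron-sulphur protein that takes electrons from ubiquinol, rose in both genotypes by similar amounts. It was at 141, 129 and 118 in wt sham against 187, 190 and 183 in wt paraquat, and 144, 126 and 123 in KO sham against 183, 193 and 206 in KO paraquat, with no overlap between treatments. It rose by 0.53 ± 0.09 in wt (1.45-fold, adjusted p = 0.000487) and 0.57 ± 0.09 in KO (1.48-fold, adjusted p = 0.000357), and the 95% interval of the difference between the responses was -0.24 to 0.31. The core proteins differed less: Uqcrc1 by -0.23 and -0.22 and Uqcrc2 by -0.03 and 0.08, none past the threshold. The small subunits Uqcrb and Uqcrq fell in wt by 0.28 and 0.49, and neither fall was called without wt sham 2, in which Uqcrq was at 236 against 156 in both other wt sham arrays.

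Complex IV, cytochrome c oxidase, reduces oxygen. Of its 11 general subunits 5 rose and 1 fell in wt, and 3 rose and none fell in KO (5 at an unadjusted p under 0.05, in either direction). The shares called were 54.5% and 27.3%, against 29.2% and 27.1% of all genes. Ndufa4, a subunit that associates with the finished enzyme, had the surest rise of all members. Its signal was 1261, 1393 and 1153 in wt sham against 2494, 2401 and 2538 in wt paraquat, and 1669, 1388 and 1388 in KO sham against 2687, 2377 and 2367 in KO paraquat. All 6 paraquat arrays exceeded all 6 sham arrays by a wide margin. The rise was 1.96-fold in wt (log2 0.97 ± 0.10, adjusted p = 5.88e-06) and 1.68-fold in KO (log2 0.74 ± 0.10, adjusted p = 7.89e-05).

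Its paralogue Ndufa4l2, known as a hypoxia-inducible gene, changed in the opposite direction. It was at 285, 197 and 283 in wt sham against 112, 94 and 85 in wt paraquat, and 350, 446 and 308 in KO sham against 106, 135 and 121 in KO paraquat. Every paraquat array lay below every sham array. The falls were 2.61-fold in wt (log2 -1.38 ± 0.17, adjusted p = 2.92e-05) and 3.03-fold in KO (log2 -1.60 ± 0.17, adjusted p = 1.19e-05). Among the members named, Ndufa4l2 alone kept its call in both responses in all 24 alternatives, a 1.5-fold minimum included, while Ndufa4 and Uqcrh did so in wt.

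Among the other general subunits, Cox7a2 and Cox8a rose in both genotypes. Cox7a2 was at 602, 663 and 509 in wt sham against 874, 883 and 931 in wt paraquat, and 810, 730 and 690 in KO sham against 932, 896 and 920 in KO paraquat. It rose by 0.61 ± 0.10 in wt (adjusted p = 0.000334) and 0.30 ± 0.10 in KO (adjusted p = 0.0357), the latter not called without any one of KO sham 2, KO sham 3 and the 3 KO paraquat arrays. Cox8a rose by 0.41 and 0.40, and Cox6b1 by 0.57 in wt, with 0.30 in KO. Cox7b is treated with the genotypes. The subunits Cox4i1, Cox5a and Cox5b did not rise. Cox4i1 differed by -0.30 in both genotypes (adjusted p = 0.0553 and 0.0613) and Cox5a by 0.15 and -0.09. Cox5b fell by 0.43 in wt (adjusted p = 0.0474), a call lost in 14 of 24 alternatives.

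The restricted isoforms are known from muscle, lung, testis or fat. Apart from Ndufa4l2, Cox4i2, Cox6a2, Cox6b2, Cox7a1, Cox7b2, Cox8b and Cox8c had signals from 6 to 69 on every array, and none passed in either response (3 of the 7 at an unadjusted p under 0.05 in wt and none in KO). Markers of testis were all under 45 in their mean over the 12 arrays (0 of 4 above), 5 of 13 muscle markers were above it, and of 4 brown fat markers Cidea alone was (mean 228).

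Complex V had 6 rises and 2 falls among 17 members in wt and 3 rises and 1 fall in KO. The shares called were 47.1% and 23.5%, against 29.2% and 27.1% of all genes. In the F1 head Atp5a1 and the catalytic subunit Atp5b did not pass: Atp5a1 differed by 0.07 in wt and -0.15 in KO, and Atp5b by 0.14 and -0.05. Their 95% intervals lay between -0.10 and 0.30 in wt and between -0.31 and 0.10 in KO, that is, within 1.5-fold. Atp5d, a subunit of the central stalk, was at 456, 707 and 488 in wt sham against 873, 839 and 868 in wt paraquat, and 446, 406 and 378 in KO sham against 832, 864 and 723 in KO paraquat. Paraquat arrays were above all sham arrays. Atp5d rose 1.59-fold in wt (log2 0.67 ± 0.14, adjusted p = 0.00222) and 1.97-fold in KO (log2 0.97 ± 0.14, adjusted p = 0.000145). Its second probe set rose too (0.49 and 0.88). Atp5e, also of the stalk, rose by 0.45 in wt and differed by 0.29 in KO. That wt call was lost in 7 of 24 alternatives. The second, dimmer probe set of Atp5e differed by 0.335 and 0.226 and did not pass.

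In the peripheral stalk and membrane part, Atp5pb (subunit b) and Atp5md rose in both genotypes. Atp5pb was at 843, 1007 and 857 in wt sham against 1223, 1239 and 1326 in wt paraquat, and 1115, 1029 and 1005 in KO sham against 1332, 1267 and 1419 in KO paraquat, without overlap. It rose by 0.49 ± 0.09 and 0.35 ± 0.09 (adjusted p = 0.000846 and 0.00946). Atp5md, a small membrane subunit, rose by 0.43 and 0.40, and Atp5mpl by 0.55 in wt, with 0.26 in KO. The KO calls of Atp5pb and Atp5md were lost without KO sham 3 and KO paraquat 3. Atp5g1, Atp5g2 and Atp5g3 encode the same mature ring subunit c, and they differed. Atp5g2 was at 2037, 2297 and 1895 in wt sham and 1470, 1372 and 1518 in wt paraquat, a fall of 0.51 (adjusted p = 0.00128), and differed by -0.21 in KO. Atp5g3 fell by 0.34 in KO, a call lost in 6 of 24 alternatives, and differed by -0.18 in wt, and Atp5g1 differed by 0.04 and 0.11. Atp5h, subunit d of the peripheral stalk, fell by 0.34 in wt (adjusted p = 0.0396, a call lost in 11 of 24 alternatives) and differed by -0.25 in KO.

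**Figure D2:**
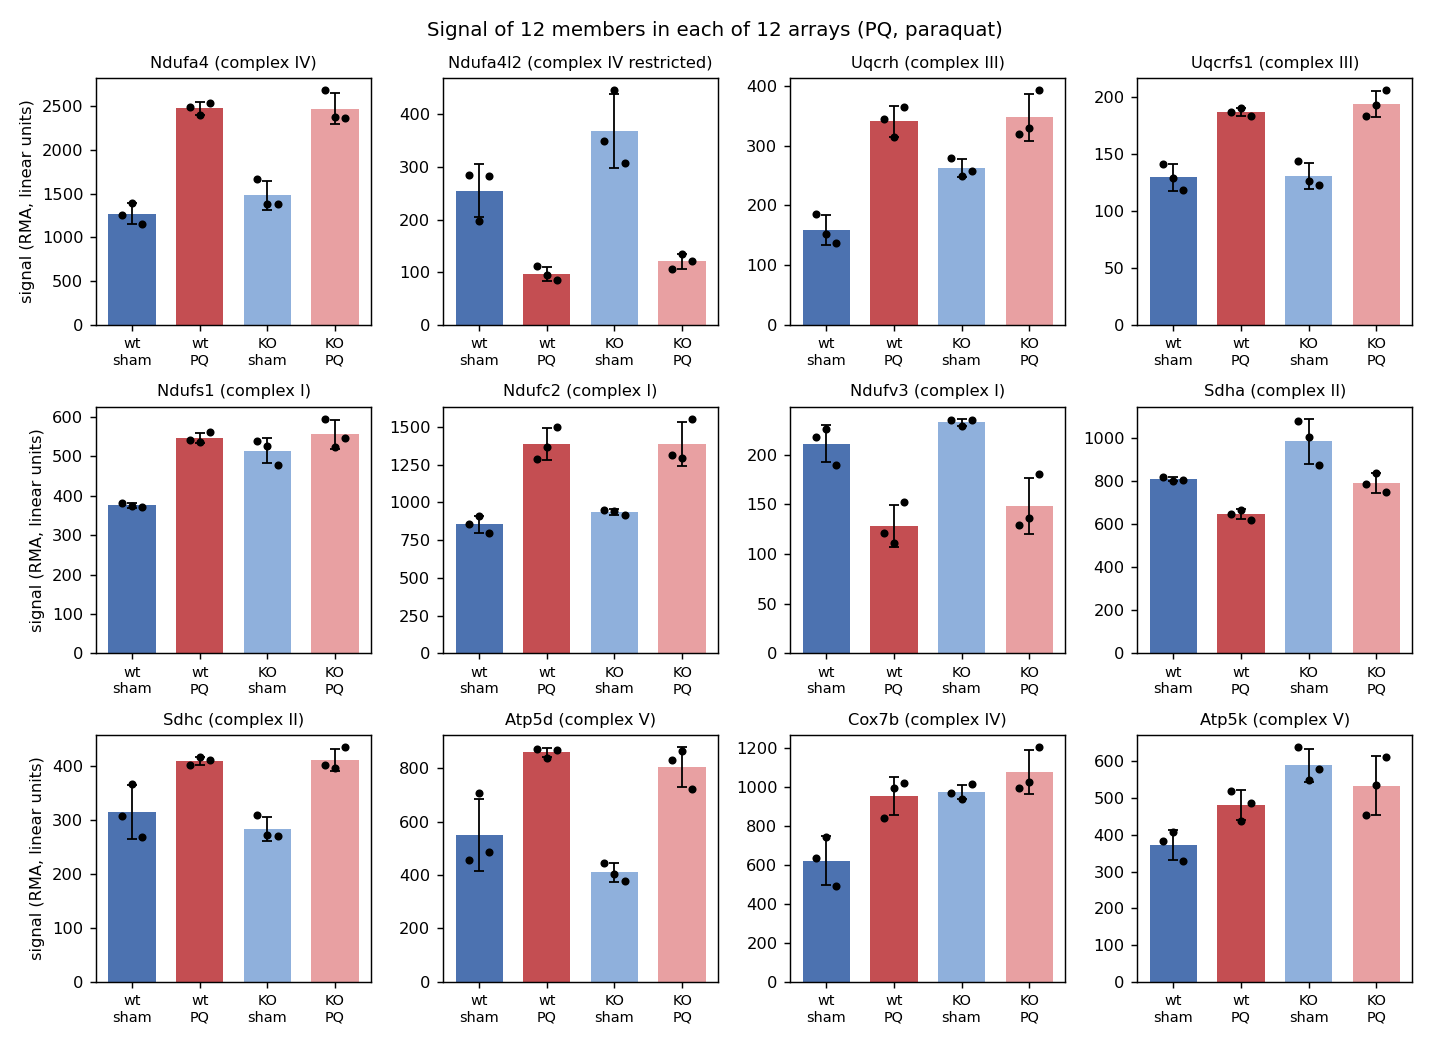
Bars give the mean RMA signal (linear scale from 0) of 12 members in the 4 groups, whiskers the SD of 3 arrays and points the single arrays, numbered 1 to 3 from left to right. Ndufa4, Uqcrfs1, Ndufc2, Sdhc and Atp5d are higher in every paraquat array than in any sham array, Ndufa4l2 and Ndufv3 are lower, and Uqcrh, Ndufs1, Cox7b and Atp5k are lowest in wt sham.

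**Figure D3:**
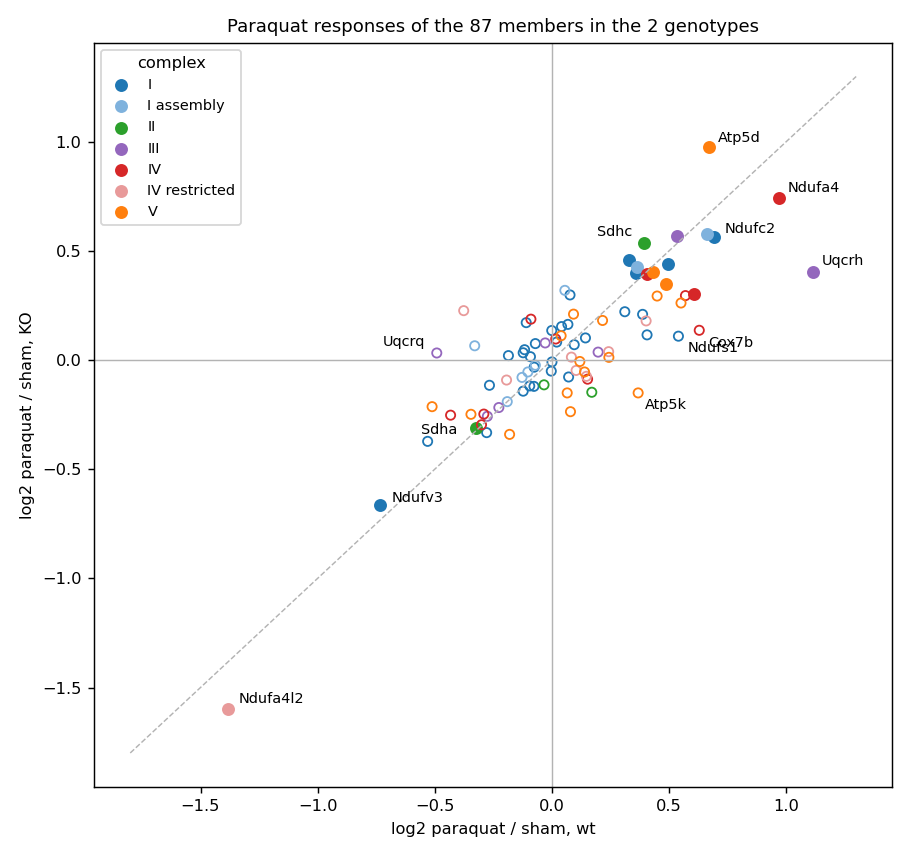
Each point is 1 of the 87 members, with the log2 response to paraquat in wt on the horizontal axis and in KO on the vertical axis, filled where both responses passed the threshold and with a dashed line at equality. The 18 filled points lie below 0 on both axes or above 0 on both axes (r = 0.82 over the 87 genes), and Uqcrh lies farthest below the line among them.

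Between genotypes, the sham arrays differed in a few members. Of 87, 6 were higher and 2 lower in KO (9.2%), against 10.2% of all genes (4.58% higher and 5.67% lower), and the median was 0.09 over the members and -0.01 over all genes. KO and wt arrays did not overlap in 24 members (27.6%), against 22.7% of all genes. The higher ones were Uqcrh, Ndufs1, Atp5k, Cox7b, Ndufs3 and Cox7a2, and the lower ones were Cox6a2 and Ndufaf3. Uqcrh was 1.67-fold higher (log2 0.74 ± 0.12, adjusted p = 0.00172) and Ndufs1 was 1.37-fold higher (0.45 ± 0.08, adjusted p = 0.00266), from the array values given above. This comparison and the wt response share the wt sham arrays, so a low value there enters both of them.

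Atp5k, subunit e of the membrane part, was at 384, 408 and 328 in wt sham and 639, 550 and 578 in KO sham, and at 519, 438 and 487 in wt paraquat and 453, 536 and 613 in KO paraquat. The KO sham arrays lay above all wt arrays. It was 1.58-fold higher in KO sham (log2 0.66 ± 0.12, adjusted p = 0.00366), rose by 0.37 in wt under paraquat (adjusted p = 0.0348) and differed by -0.15 in KO. Cox7b, an X-linked subunit of complex IV, was at 635, 743 and 491 in wt sham against 841, 997 and 1024 in wt paraquat, and 970, 941 and 1016 in KO sham against 997, 1026 and 1206 in KO paraquat. It was 1.59-fold higher in KO sham (0.67 ± 0.14, adjusted p = 0.00723) and rose 1.55-fold in wt (0.63 ± 0.14, adjusted p = 0.0029). A second Cox7b probe set, with signals of 17 to 38, showed no called difference, and the mean of both probe sets ended both calls.

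Ndufs3, a core subunit of the ubiquinone module, was at 119, 121 and 121 in wt sham and 151, 157 and 145 in KO sham, 0.33 ± 0.08 higher in KO (adjusted p = 0.0224). Cox7a2 was 0.34 higher (adjusted p = 0.0484), a call lost in 16 of 24 alternatives. Ndufaf3, which helps to assemble the ubiquinone module, was at 229, 258 and 240 in wt sham and 198, 171 and 156 in KO sham, 1.39-fold lower in KO (log2 -0.47 ± 0.12, adjusted p = 0.0269). Cox6a2 was at 49, 69 and 60 in wt sham and 36, 44 and 39 in KO sham (log2 -0.57 ± 0.14, adjusted p = 0.0179), near the array median. Without KO sham 3 and KO paraquat 3, Uqcrh, Ndufs1, Atp5k, Cox7b and Ndufs3 were still called higher (adjusted p 0.00719 to 0.0365), while Cox7a2, Cox6a2 and Ndufaf3 were not (0.0686 to 0.115). Without wt sham 2 and KO paraquat 3, the 2 falls and Ndufs3 were not called.

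Under paraquat none of the 87 members differed between KO and wt (0 past the threshold with limma, 4 at an unadjusted p under 0.05), against 0.55% of all genes. The log2 differences ran from -0.18 to 0.32, all within 1.5-fold, with a median of 0.05. Arrays did not overlap in 14 members (16.1%), against 17% of all genes.

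The difference between the 2 responses was tested directly as an interaction. Of 87 members 1 passed (1.15%), against 2.29% of all genes (1.39% higher and 0.897% lower), and 9 were at an unadjusted p under 0.05. It was Uqcrh, whose response was smaller in KO by log2 0.71 (difference -0.71 ± 0.17 SE, adjusted p = 0.0453). That call was lost in 15 of 23 alternatives, among them leaving out KO sham 3 and KO paraquat 3 (-0.82, adjusted p = 0.0788), with the difference between -0.83 and -0.61 throughout. For Ndufs1 the difference was -0.43 ± 0.11 (adjusted p = 0.0652), for Atp5k -0.52 ± 0.17 (0.151), for Cox7b -0.49 ± 0.19 (0.23) and for Uqcrq 0.52 ± 0.20 (0.226). None of these is shown to respond differently in the genotypes.

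**Figure D4:**
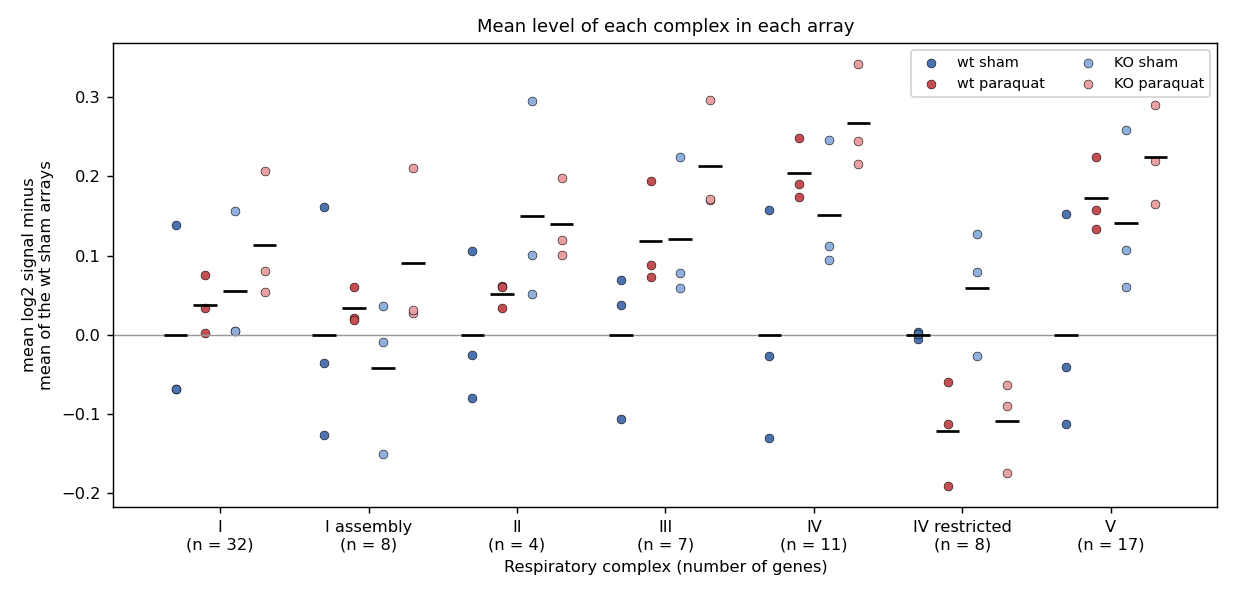
Each point is 1 array and gives the mean log2 signal over the genes of a complex, less the mean of the 3 wt sham arrays, with a bar at the mean of each group. In complexes III (by a narrow margin) and IV the 3 wt paraquat arrays lie above the 3 wt sham arrays, and in complexes I, II and V they overlap. The restricted isoforms of complex IV lie lower under paraquat in both genotypes.

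Averaged over each complex, the groups lay close together. The complex IV mean on the log2 scale was 9.63 ± 0.15 (SD, n = 3) in wt sham and 9.84 ± 0.04 under paraquat, and 9.78 ± 0.08 and 9.90 ± 0.07 in KO. In wt its sham arrays (9.5 to 9.79) and paraquat arrays (9.81 to 9.88) did not overlap, and in KO they did. For complex III the wt arrays were also apart, by a narrow margin (8.554 to 8.728 in sham and 8.733 to 8.853 under paraquat). Of its 7 genes, 3 had a positive and 4 a negative wt difference (median log2 -0.03), and Uqcrh had the widest (1.12). Complex I arrays lay between 8.22 and 8.43 in wt sham and 8.29 and 8.37 in wt paraquat, and complexes II and V overlapped likewise. Over all 87 members the mean was 8.21 ± 0.11, 8.28 ± 0.03, 8.29 ± 0.09 and 8.35 ± 0.06 (wt sham and paraquat, then KO sham and paraquat). The highest array of its group in that mean was wt sham 2, KO sham 1 or KO paraquat 3, so the spread within wt sham exceeded the difference between the wt groups. The lower mean of the restricted isoforms under paraquat (5.06 and 4.94 in wt, 5.12 and 4.95 in KO) holds Ndufa4l2, the one of the 8 that fell.

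Genes around the chain were counted from lists by role. The assembly factors of complexes II to V, which insert cofactors and subunits, had 9 rises and 3 falls among 31 in wt and 14 rises and 2 falls in KO (38.7% and 51.6% called, against 29.2% and 27.1% of all genes), with medians of 0.11 and 0.24. Sdhaf1, which helps to place iron-sulphur clusters in complex II, rose by 1.13 ± 0.10 in wt (adjusted p = 1.05e-06) and 1.4 ± 0.10 in KO (adjusted p = 3.6e-07), from a signal of 135 ± 16.7 to 295 ± 24 in wt and from 105 ± 2.52 to 275 ± 8.62 in KO (SD, n = 3). Lrpprc, which stabilises mitochondrial mRNA, fell by 0.69 and 0.58. Cox19, Coa6 and Cox17, which serve copper delivery to complex IV, and Taco1, a translational activator of one of its subunits, were among the rises. All 4 rose in both genotypes: Cox19 by 0.72 in wt and 0.55 in KO, Coa6 by 0.72 and 0.53, Cox17 by 0.74 and 0.81 and Taco1 by 0.54 and 0.70. In sham arrays Surf1 (-0.63) and Sdhaf1 (-0.36) were lower and Cox20 (0.49) and Pet100 (0.38) higher in KO. The 8 other complex I assembly factors had 1 rise and 1 fall in each genotype, 25% called (Acad9 0.53 and Foxred1 -0.38 in wt, Tmem126a 0.32 and Tmem186 -0.35 in KO), with medians of 0.02 and 0.09. Tmem186 was 0.36 higher in KO sham.

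Electron carriers and ubiquinone synthesis had 4 rises and 1 fall among 17 genes in wt and 4 rises in KO, with medians of 0.09 and 0.18. The shares called were 29.4% and 23.5%, against 29.2% and 27.1% of all genes. Coq4, a ubiquinone synthesis protein, rose by 0.86 in wt and 0.63 in KO, Coq3 by 0.39 and 0.76 and Coq10b by 0.44 and 0.39. Coq7 rose by 0.51 in wt and was 0.49 higher in KO sham, where Coq3 was 0.44 lower (log2 -0.44). Coq6 rose by 0.37 in KO. The carrier cytochrome c (Cycs) differed by 0.15 and 0.01 and did not pass. The 15 citric acid cycle genes had 2 rises (Sucla2 0.23 and Mdh2 0.24) and 1 fall (Idh3g -0.38) in wt and 2 falls in KO (Fh1 -0.37 and Idh3a -0.33), that is 20% and 13.3% called, with medians of -0.01 and 0.04. Fh1 (0.48) and Idh3a (0.39) were higher in KO sham.

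Regulators of mitochondrial biogenesis and mitochondrial DNA were mixed, with 6 rises and 5 falls among 21 in wt and 6 rises and 2 falls in KO. The shares called were 52.4% and 38.1%, against 29.2% and 27.1% of all genes, with medians of 0.02 and 0.08. Pprc1, a coactivator of the family of Ppargc1a, fell by 0.71 and 0.45. Nrf1, the factor whose motif stands in the member windows above, rose by 0.48 in wt and differed by 0.09 in KO, and Tfam, which packages mitochondrial DNA, differed by 0.02 and 0.08. Of the subunits of the mitochondrial DNA polymerase, Polg2 rose by 0.99 in wt and 0.50 in KO, and Polg fell by 0.48 in wt and differed by -0.18 in KO. Tefm rose (0.50 and 0.65) and Ppargc1b fell (-0.45 and -0.63) in both genotypes, and Gabpb1 rose by 0.44 in KO and differed by 0.00 in wt. Gabpb1 (-0.51), Pprc1 (-0.30) and Tfb1m (-0.35) were lower in KO sham.

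Import, protease and chaperone genes had 2 rises and 6 falls among 18 in wt and 3 rises and 4 falls in KO, with medians of -0.04 and 0.00. The shares called were 44.4% and 38.9%, against 29.2% and 27.1% of all genes. Lonp1, a protease of the mitochondrial matrix, went from 898 ± 153 in wt sham to 249 ± 9.45 under paraquat, and from 369 ± 16.3 to 270 ± 19.4 in KO (SD, n = 3). It fell by 1.83 ± 0.11 in wt and by 0.45 ± 0.11 in KO, and was lower in KO sham by 1.27 (log2 -1.27 ± 0.11, adjusted p = 2.8e-05). The responses differed by 1.39 ± 0.16 (adjusted p = 0.000658). Hspa9, the mitochondrial Hsp70, was also highest in wt sham, with a fall of 0.48 in wt, a difference of 0.09 in KO, -0.55 in KO sham and 0.57 between the responses (adjusted p = 0.0112). Clpp, another matrix protease, rose by 0.77 and 0.89, and Vdac1, the outer membrane channel, fell by 0.51 and 0.43. Tomm22 rose by 0.39 and 0.41 and Timm50 fell by 0.46 and 0.37 in wt and KO. Under paraquat 0 of the 110 genes in these 6 lists differed between KO and wt by limma's threshold, with 12 at an unadjusted p under 0.05. Of all genes 0.55% passed in that comparison, so a count of 0 is near the background.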

How the data were processed

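RNA of 12 keratinocyte cultures was amplified and biotin-labelled with a whole-transcript kit, per the labels' protocols, and read on 1 Affymetrix array each. Per the submitters' processing notes, the authors ran RMA, which corrects background, quantile-normalizes and summarises probes, in version 1.3.1.187 of Affymetrix Expression Console, and deposited 1 intensity per probe set. These deposited intensity values were whole numbers on a linear scale, not log2, with array medians of 42 to 45, so their log2 was taken here. Rounding makes the log2 of dim probe sets coarse. A genome build or filter is not given in the sources used here.

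Of 41345 probe sets, 23521 carried 1 gene symbol, 1814 several and 16010 none. The probe set with the highest mean stood for a gene, which left 22180 genes. Second probe sets and probe sets of several symbols were tested in a separate limma fit, adjusted over all 41345 probe sets. All 87 members matched a mouse gene table (GRCm38.p6) by identifier. Genes read only by probe sets of several symbols (Ndufb1, Ndufb2, Ndufb4, Ndufs6, Uqcr10 and Cox6c, where listed at all) and genes of mitochondrial DNA were not analysed here as members.

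All 12 arrays were fitted together, with a mean for each group, in limma 3.58.1 (lmFit, eBayes; R 4.3.3), with 2-sided moderated tests and Benjamini-Hochberg adjustment over 22180 genes. Over all genes, deviations of same-numbered arrays from their group means correlated weakly (r from -0.073 to 0.09), so no block was used. The highest of these values was that of KO sham 3 and KO paraquat 3, the arrays with Xist signal. The labels do not say whether these 2 arrays share an animal. Named were up to 6 called members per comparison and complex in order of p (the single smallest p where none passed), the core subunits, and up to 4 called genes per surrounding list. Atp5h and Ndufs5 were added to these after their values were seen. Members, lists and tests were chosen with earlier results of these data known. The method was tested on simulated data. Alternatives were rescalings, a filter on dim genes, 16 added before the log2, other probe set, variance and sample choices, a 1.5-fold minimum, the replicate block and leaving out arrays.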

Additional observations from a re-analysis of the deposited data

Results flagged for a closer look

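Uqcrh was the 1 member whose responses to paraquat differed between the genotypes by the interaction test, with log2 -0.71 for KO minus wt (limma adjusted p = 0.0453). The call was lost in 15 of 23 alternatives, and 1 of 87 members (1.15%) compares with 2.29% of all genes. Its signal was lowest in wt sham (158 ± 25.1, SD, n = 3), then KO sham (262 ± 15.1), and it was close in wt paraquat (341 ± 25.6) and KO paraquat (348 ± 39.6).

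Subunits read only by probe sets that carry several gene symbols stood outside the comparisons above. The flag was for rises, and 3 such probe sets were called higher under paraquat in at least 1 genotype. The probe set of Uqcr10 and Gm6293 rose by 0.55 in wt (adjusted p = 0.0146) and differed by 0.31 in KO (adjusted p = 0.154). The probe set of Ndufb2, an accessory subunit of complex I, and Adck2 rose by 0.80 in wt and 0.54 in KO (adjusted p = 0.000804 and 0.011). The brighter probe set of Cox6c and Gm6265 rose by 0.36 in wt and 0.38 in KO (adjusted p = 0.0216 and 0.0164). Their dimmer probe set differed by 0.205 and 0.147 and did not pass (adjusted p = 0.197 and 0.367). Which of the genes gave the signal cannot be told from these probe sets. A probe set shared by Ndufs5 and its pseudogene, with signals of 192 to 344, fell by 0.57 in wt (adjusted p = 0.00615). The dim probe set of Ndufs5 alone, at 23 to 35, rose by 0.31 (adjusted p = 0.0483 in the limma fit of 22180 genes). That call was lost in 14 of 23 alternatives, among them leaving out KO sham 3 and KO paraquat 3, at 0.0533. The adjusted p of the shared probe sets are from a limma fit of all 41345 probe sets, a different scale from those of Ndufs5 alone.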

How the results depend on the processing

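No call of a named member reversed in the alternatives run, which did not cover the surrounding lists. The medians over all members moved by less than the spread between arrays, though that of the difference of responses (-0.009) ranged from -0.106 to 0.043 and so changed sign, and that in KO was -0.005 without KO replicate 3 in both treatments. Of the members named with a call, 3 of 32 in wt and 1 of 21 in KO were called in all alternatives, and 15 and 7 more lost the call only where at least 1.5-fold change was required. That requirement left 2 rises and 1 fall in wt, 0 and 1 in KO, and 0 in the sham comparison of genotypes and in the difference of responses. Falls in KO, 5 as reported, numbered 9 after a second quantile normalization, 2 with arrays centred on the median, 9 with the filter on dim genes, 8 with 16 added, 9 with a variance trend, 8 with array weights and 3 with only the arrays compared. Falls in wt numbered 14 with the filter. Members higher in KO sham, 6 as reported, numbered 10 after the second quantile normalization, 13 with the filter, with 16 added and with the variance trend, and 3 with only the arrays compared. Members lower in KO sham, 2 as reported, numbered 0 with only the arrays compared, without both arrays that stand apart, without KO replicate 3 in both treatments and among structural subunits only. The smaller KO response, 1 member as reported, numbered 2 with the filter, with 16 added and with the variance trend, and 0 with median centring, with the replicate block and without either pair of arrays. Rises in KO numbered 6 without KO replicate 3 in both treatments, an alternative chosen after seeing the data.

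With 1 array left out, rises ranged from 16 to 27 in wt and 12 to 17 in KO, and falls from 4 (without wt paraquat 2) to 10 in wt and 3 to 7 in KO. In sham arrays, 4 to 9 members were higher in KO and 0 to 3 lower, and 0 to 1 had a smaller KO response. Medians over the members ranged from 0.03 to 0.09 in wt and 0.01 to 0.11 in KO. The replicate number as a block kept 26 of 32 calls in wt, 21 of 21 in KO and 7 of 8 in sham, and 0 of 18 same-numbered pairs of arrays had deviations that correlated above 0.1. Why counts moved was not tested, except that the filter tests fewer genes. Rescaling moved the median of all genes by 0.06 at most. Arrays number 3 per group, which limits the precision, and 8 members were near the array median.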
